A study of Mus musculus with 26 samples.

Results

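Potassium channels set the resting potential of arterial smooth muscle, and 8 genes that encode channels of this muscle were followed across RNA sequencing libraries of mouse mesenteric arteries, small vessels that supply the intestine and set its resistance to flow. The genes were chosen by name as the rows of the deposited normalized table that carry these symbols, and all 8 were found once among its 21031 genes. They are Kcnma1 and Kcnmb1 (the pore and an accessory subunit of the large-conductance calcium-activated channel, BK), Kcna5 and Kcna2 (voltage-gated channels Kv1.5 and Kv1.2), Kcnj8 and Abcc9 (the pore Kir6.1 and the sulfonylurea receptor SUR2 of the ATP-sensitive channel, KATP), Kcnj2 (the inward rectifier Kir2.1) and Kcnq5 (the voltage-gated channel Kv7.5).

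The arteries came from male mice aged 8 weeks, and 26 libraries of polyadenylated RNA formed 8 groups. A global Panx1 knockout (Panx1 KO, 3 libraries) was compared with wild-type mice (WT, 3 libraries). Pannexin 1, the product of Panx1, forms a membrane channel that releases ATP. In the other 3 comparisons each group was labelled by a changed residue of pannexin 1: Y198F+/+ mutants (3) against Y198F-/- controls (3), S205A+/+ mutants (4) against S205A-/- controls (4), and Y308F+/+ mutants (3) against Y308F-/- controls (3), where Y to F removes a tyrosine and S to A a serine that could be phosphorylated. The study describes its controls as littermate or wild-type animals, names no Cre driver or cell type for the changes, and counts 3 vascular trees per genotype without saying whether trees were pooled. Because nothing states that the libraries of a group came from separate animals, p-values measure only the spread between these libraries.

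Closure of potassium channels depolarizes the muscle membrane, opens voltage-gated calcium channels and constricts the artery, and opening them relaxes it. BK channels open with depolarization and local calcium release, and Kv1 and Kv7 channels open with depolarization alone. KATP channels respond to cellular nucleotides and to vasodilator signals, and the inward rectifier Kir2.1 helps the vessel respond to a rise in external potassium. Accessory subunits shape these responses. The protein of Kcnmb1 raises the calcium sensitivity of BK channels, and the SUR2 protein of Abcc9 carries the nucleotide and drug binding sites of the KATP channel.

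The pore-forming members share a filter signature, the pattern threonine, any residue, glycine, tyrosine or phenylalanine, glycine, which lines the path of the potassium ion. A search of the translated coding sequence of the canonical GENCODE vM39 transcript found this pattern 1 time in each of the 6 pore genes and 0 times in the accessory genes Kcnmb1 and Abcc9. The coding bases of 5 of them are shown because they separate pore from accessory members, with the 15 bases of the signature in capitals, on the coding strand of GRCm39, 5′ to 3′.
Kcnma1: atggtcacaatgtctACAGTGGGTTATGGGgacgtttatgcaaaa
Kcna5: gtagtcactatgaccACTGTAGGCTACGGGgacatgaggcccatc
Kcna2: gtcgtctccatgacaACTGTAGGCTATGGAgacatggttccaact
Kcnj2: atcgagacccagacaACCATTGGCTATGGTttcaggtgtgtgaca
Kcnj8: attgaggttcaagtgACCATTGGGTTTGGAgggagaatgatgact
The Kcnma1 window lies in exon 8 at chr14:23578466-23578510 on the minus strand and that of Kcna5 in the single exon at chr6:126510693-126510737 on the minus strand. The Kcna2 window lies in exon 3 at chr3:107012525-107012569 on the plus strand, that of Kcnj2 in exon 2 at chr11:110963018-110963062 on the plus strand, and that of Kcnj8 in exon 3 at chr6:142512159-142512203 on the minus strand.

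On GRCm39 the genes span from 2.9 kb for Kcna5 (chr6:126509514-126512375, 1 exon) to 725.1 kb for Kcnma1 (chr14:23339499-24064559, 28 exons in the canonical transcript). Kcnj8 (chr6:142510563-142517830) and Abcc9 (chr6:142533588-142648571) lie beside each other on the minus strand of chromosome 6, so the pore and receptor genes of one channel are neighbours. Kcnmb1 (chr11:33890243-33923641) overlaps the protein-coding gene Kcnip1 on the opposite strand, and Kcna2 (chr3:107008237-107022321) overlaps the long non-coding RNA gene Gm27008 on the opposite strand. The spans of Kcnma1, Abcc9, Kcnj2 and Kcnq5 also overlap genes on the opposite strand, none of them protein-coding, and Kcnma1 and Kcnq5 overlap such genes on their own strand too, with 7 and 6 overlapping genes in all. Kcna5 and Kcnj8 overlap 0 genes. Whether the counting used the strand is not given in the sources used here, so reads from any exon bases that these 6 members share with such genes cannot be told apart. How many exon bases are shared was not measured.

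Deposited counts summed to between 14895969 and 23617902 per library. Panx1, the gene that checks the knockout label, had 11 to 27 counts in the Panx1 knockout libraries and 61 to 96 in the wild-type libraries. The names of 9 libraries have numbers starting with 22, and these libraries are called the 22 series: all 3 Y198F mutants, controls 1 to 3 of S205A and mutants 2 to 4 of S205A. No Y198F control is of this series, so the library series and the Y198F mutation cannot be told apart. Smooth muscle markers were abundant in every library, with a summed level of 12 genes between 30398 and 58271 CPM (counts scaled to a common library size). Genes of other cell types were counted too: 10 endothelial genes summed to 1283 to 10527 CPM and 9 Schwann cell genes to 131 to 553 CPM. Some lists were low, with 7 macrophage genes at 9.22 to 147 CPM and 5 lymphoid genes at 0.622 to 23.5 CPM. Single genes of other lists were at or near 0. In such bulk samples, fewer cells of a type and less RNA per cell cannot be told apart.

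Per kilobase of exon, which allows levels of different genes to be compared, Kcna5 and Kcnmb1 stood far above the other members. Kcna5 averaged 41.6 ± 13.1 and Kcnmb1 41.6 ± 6.79 CPM per kilobase (SD, n = 26). Kcna2 followed at 6.60 ± 3.10, Kcnma1 at 4.84 ± 0.968, Abcc9 at 3.32 ± 0.818, Kcnj2 at 2.43 ± 0.821 and Kcnj8 at 1.82 ± 0.607 CPM per kilobase (SD, n = 26). Kcnq5 was lowest at 0.454 ± 0.192 CPM per kilobase, with 20 to 143 counts per library. Accessory subunits were thus counted more than their pores, per kilobase, in both channel complexes of the list.

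**Figure D1:**
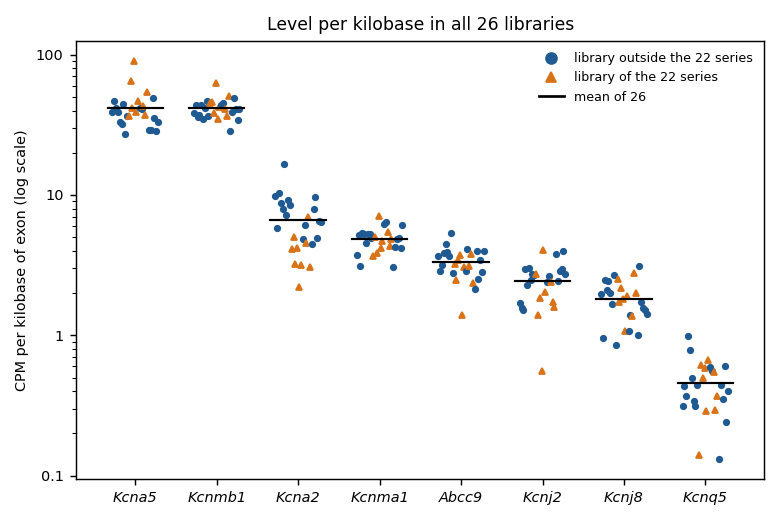
Level of each gene in CPM per kilobase of exon (log axis) in all 26 libraries, with triangles for the 9 libraries of the 22 series, circles for the other 17 and a bar at the mean. Kcna5 and Kcnmb1 (means 41.6) lie above every other member in all 26 libraries, and Kcnq5 has the lowest mean (0.454).

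The spread between libraries differed among members. Kcnmb1 was the steadiest, with a coefficient of variation of 16.3% over the 26 libraries and a highest library 2.22 times its lowest. Kcnma1 varied by 20.0%, Abcc9 by 24.6%, Kcna5 by 31.5%, Kcnj8 by 33.3%, Kcnj2 by 33.8% and Kcnq5 by 42.3%. Kcna2 varied most, by 47.0%, from 29.8 CPM in S205A control 2 to 226 CPM in Panx1 knockout 3, a ratio of 7.58. When the 8 group means of each gene were placed in order, 1 of the 56 neighbouring pairs of groups (Kcnma1 in the Panx1 knockout above the Y198F mutant) had a gap above the larger of the 2 standard deviations, and in 0 of 56 pairs were the libraries of the neighbouring groups apart.

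**Figure D2:**
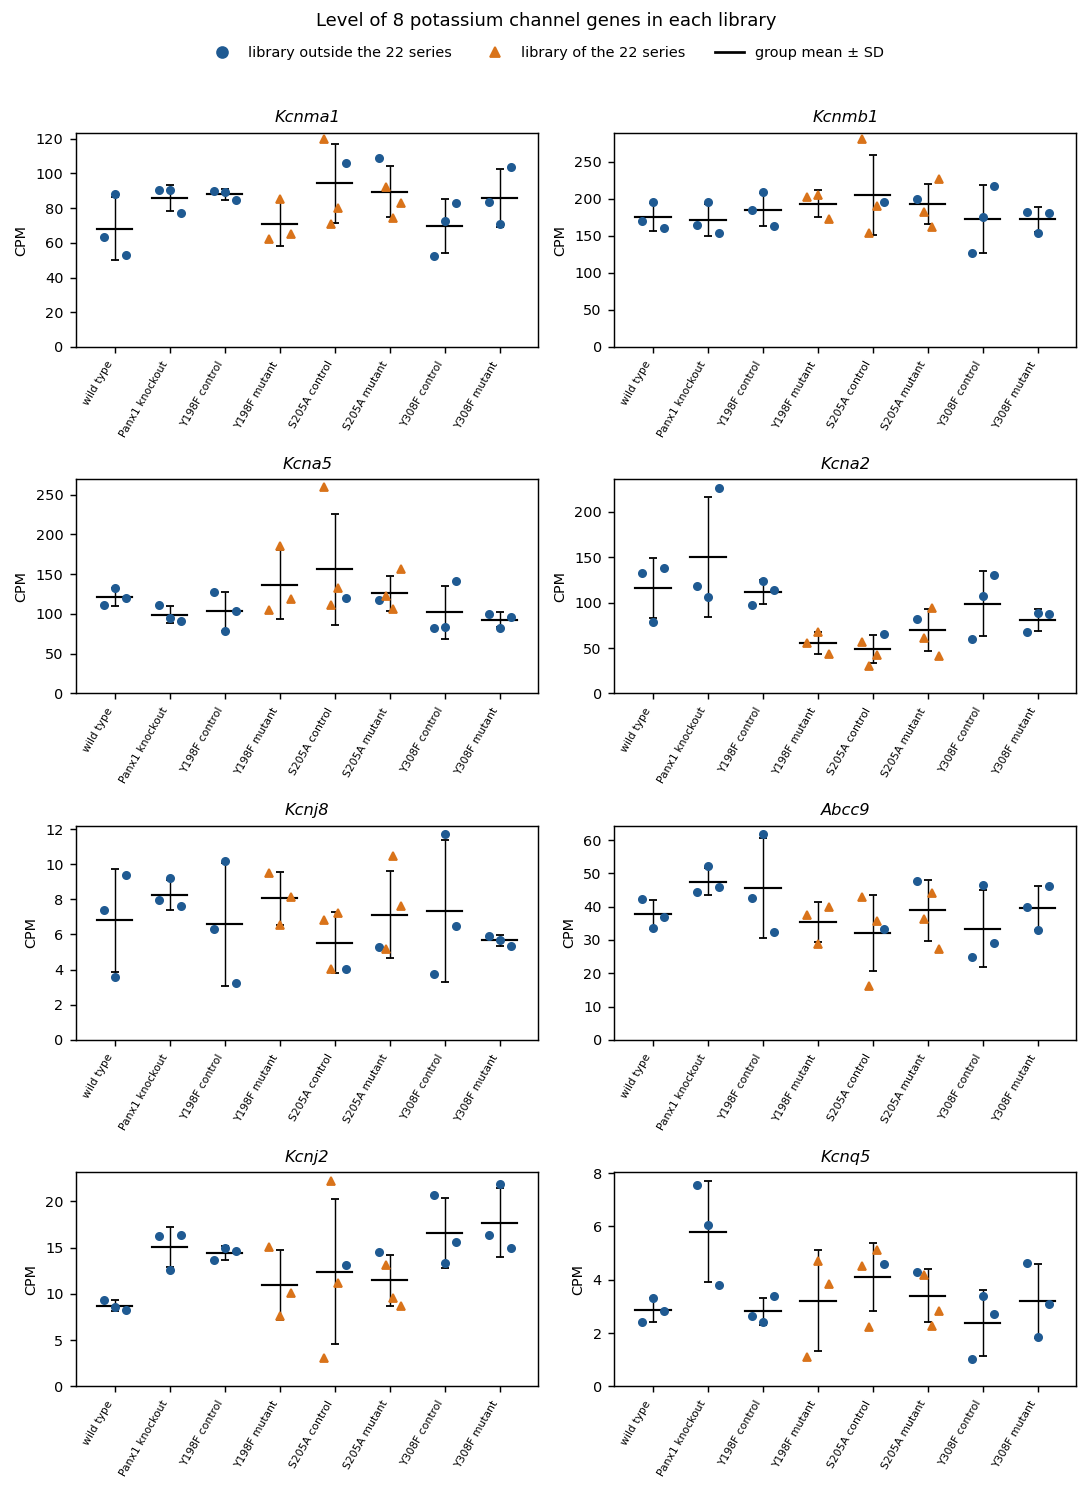
CPM of each gene in each library by group, with a bar at the group mean and whiskers of 1 SD. The 3 Y198F mutants lie below the 3 Y198F controls for Kcna2, and the 3 Panx1 knockouts lie above the 3 wild types for Kcnj2, Kcnq5 and Abcc9.

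The BK channel genes were measured most evenly across groups. Kcnma1, the pore, had group means from 68.2 ± 18.0 CPM in wild type (SD, n = 3) to 94.2 ± 22.7 CPM in the S205A controls (SD, n = 4). Kcnmb1, its accessory subunit, had group means from 171.8 ± 21.3 CPM in the Panx1 knockout (SD, n = 3) to 205.4 ± 53.9 CPM in the S205A controls (SD, n = 4). By SD the widest group was the S205A controls, where control 1 had 119.7 CPM of Kcnma1 and 281 CPM of Kcnmb1, the highest value of the 26 libraries for both. By coefficient of variation Kcnma1 was widest in wild type (26.5%, beside 24.1% in the S205A controls). Kcnmb1 was widest in the Y308F controls by that measure (26.4%, beside 26.3%).

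The 3 voltage-gated genes all varied by more than the BK genes over the 26 libraries. Kcna5 had group means from 92.8 ± 9.31 CPM in the Y308F mutants (SD, n = 3) to 156 ± 69.5 CPM in the S205A controls (SD, n = 4). Kcna2 had its highest mean in the Panx1 knockout, 150.3 ± 65.8 CPM (SD, n = 3), and its lowest in the S205A controls, 48.5 ± 15.5 CPM (SD, n = 4). Kcnq5 had group means from 2.37 ± 1.23 CPM in the Y308F controls to 5.81 ± 1.89 CPM in the Panx1 knockout (SD, n = 3 each).

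Among the inward rectifier genes, Kcnj8 had group means from 5.54 ± 1.73 CPM in the S205A controls (SD, n = 4) to 8.25 ± 0.846 CPM in the Panx1 knockout (SD, n = 3). Abcc9, its partner, had group means from 32.1 ± 11.3 CPM in the S205A controls (SD, n = 4) to 47.5 ± 4.11 CPM in the Panx1 knockout (SD, n = 3). Kcnj2 had its lowest mean in wild type, 8.73 ± 0.576 CPM, and its highest in the Y308F mutants, 17.7 ± 3.69 CPM (SD, n = 3 each).

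The first comparison asked how the arteries differed when pannexin 1 was lost. In the Panx1 knockout, 0 of the 8 genes passed the adjusted threshold of 0.05 in edgeR's quasi-likelihood test, where 0.0309% of the 16193 genes tested did, and 0 passed in DESeq2 (0.134%). At an unadjusted p under 0.05, 4 of the 8 were counted by edgeR and 2 by DESeq2, beside 11.2% of all genes by edgeR and 8.72% by DESeq2. The libraries of the 2 groups did not overlap for 3 members, Kcnj2, Kcnq5 and Abcc9, all higher in the knockout, beside 18.8% of all genes. The median log2 fold change of the 8 was 0.36, beside 0.01 for all genes tested.

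Kcnj2 was measured at 9.36, 8.59 and 8.23 CPM in the wild-type libraries and at 16.2, 12.6 and 16.4 CPM in the knockout libraries. Every knockout library was above every wild-type library. On the log2 scale edgeR gave 0.81 ± 0.168 (SE), or 1.75-fold, with an adjusted p of 0.281. The wild-type mean was also the lowest of the control groups, which had 14.4 ± 0.715 CPM in Y198F and 16.6 ± 3.78 CPM in Y308F (SD, n = 3 each). The S205A controls had 12.4 ± 7.85 CPM (SD, n = 4), from 3.06 to 22.2 CPM, so 1 control library lay below every wild-type library and the knockout level (15.1 ± 2.16 CPM) lay within the range of control groups of the series. Without the filter on low counts, Kcnj2 alone of the 8 passed in edgeR, with an adjusted p of 0.0107, beside 0.821% of all genes.

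Kcnq5 was measured at 2.43, 3.33 and 2.83 CPM in wild type and at 7.57, 6.04 and 3.82 CPM in the knockout. The knockout libraries were again all above the wild-type libraries, with the closest pair at 3.33 and 3.82 CPM. edgeR put its log2 fold change at 1.04 ± 0.308 (SE) with an adjusted p of 0.339, on 47 to 60 counts per wild-type library.

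Abcc9 was measured at 42.4, 33.6 and 36.9 CPM in wild type and at 44.5, 52.2 and 45.8 CPM in the knockout, which edgeR put at 0.36 ± 0.118 (SE) on the log2 scale (adjusted p = 0.358). Its partner Kcnj8 had 7.39, 3.60 and 9.41 CPM in wild type and 7.94, 9.20 and 7.59 CPM in the knockout, and these groups overlapped. Kcna5 was at -0.27 ± 0.118 (SE) on the log2 scale, with an edgeR adjusted p of 0.442. The remaining members gave log2 fold changes of 0.35 for Kcnma1, -0.01 for Kcnmb1 and 0.39 for Kcna2, with edgeR adjusted p-values of 0.503, 0.983 and 0.742. Kcnma1 was at 0.59 without wild type 2 and at 0.20 without wild type 3 (edgeR adjusted p = 0.227 and 0.636). Of the 11 cell type lists, only the skeletal muscle list (6 genes) had sums that did not overlap in this comparison, 23.2 to 34.8 CPM in wild type and 13.9 to 20.6 CPM in the knockout. Most of that sum was the actin gene Acta1 (median 23.9 CPM over the 26 libraries), with Myh4 at 0 in every library and the other 4 genes at medians of 0.608 to 1.16 CPM. Adipocyte sums overlapped, at 949, 727 and 4349 CPM in wild type and 667, 326 and 1331 CPM in the knockout, with wild type 3 far above the others. The part of either in the values above was not tested.

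In the Y198F comparison Kcna2 fell, and it was the only one of the 8 genes past the threshold. The count of 1 of 8 stands beside 15.0% of the 16050 genes tested in either direction and 5.48% lower in the mutant. Kcna2 was measured at 97.9, 124 and 114 CPM in the Y198F controls and at 55.3, 67.8 and 43.3 CPM in the Y198F mutants. The highest mutant library was below the lowest control library, and Kcna2 was the only member whose groups did not overlap, beside 34.2% of all genes. By edgeR it fell to 0.494-fold, -1.02 ± 0.157 (SE) on the log2 scale with an adjusted p of 0.00263, and DESeq2 on all libraries gave -1.03 with an adjusted p of 0.0300, beside 7.73% of genes past the threshold. An exact two-sided permutation test gave p = 0.1, the smallest that 3 against 3 libraries allow. With all 8 groups in one edgeR fit the adjusted p was 0.0950, and with a term for the library series the log2 fold change was -0.55 (SE 0.490, adjusted p = 1).

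The Y198F mutants are all of the 22 series. For Kcna2 the S205A controls of that series had 56.3, 29.8 and 42.8 CPM and the S205A control outside it 65.3 CPM. The S205A mutants of the series had 61.4, 93.8 and 41.1 CPM and the one outside it 82.2 CPM, so the mutants of the 2 kinds overlapped. Against those 3 S205A controls of the 22 series, Kcna2 was 0.37 higher on the log2 scale in the Y198F mutants (SE 0.252, edgeR adjusted p = 1), and the libraries of the groups overlapped. Within the S205A line, Kcna2 in the 22 series was -0.47 ± 0.320 (SE) on the log2 scale relative to the other libraries (edgeR adjusted p = 0.461), where 5.74% of genes and 0 of the 8 members passed (902 genes, falling to 70 without S205A control 4 and to 104 without S205A mutant 1, the 2 libraries of the line outside the series, to 413 without S205A control 3 and to between 534 and 596 without S205A mutant 2, 3 or 4). These comparisons share libraries and are not independent of each other.

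In the Y198F comparison 3 of the 11 cell type lists had sums that did not overlap between the groups. Those of the Schwann cell markers, genes of the glia that wrap peripheral nerve fibres, were lower in the mutants, as Kcna2 was. Their summed level was 250 to 348 CPM in the Y198F controls and 214 to 227 CPM in the Y198F mutants, with 2 of the 8 genes tested in edgeR (Mbp and S100b) lower past the threshold, 0 higher and a median log2 fold change of -0.66, and 1 (S100b) lower in DESeq2. In the S205A controls of the 22 series the Schwann list summed to 131 to 183 CPM and the fibroblast list (7 genes) to 1487 to 1804 CPM, both below the Y198F mutants. The fibroblast list was also lower than in the Y198F controls, at 3086 to 4025 CPM in the Y198F controls and 1994 to 2996 CPM in the mutants, and the endothelial list (10 genes) was higher, at 4160 to 5268 and 5349 to 5771 CPM. The part of any of these cells in the Kcna2 value was not tested.

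The other members did not pass in the Y198F comparison, and their log2 fold changes ran from -0.41 for Kcnj2 to 0.40 for Kcna5. On the log2 scale Kcnma1 was at -0.32 ± 0.123 (SE) and Abcc9 at -0.37 ± 0.241 (SE), with edgeR adjusted p-values of 0.110 and 0.363. Without the filter on low counts these 2 also passed in edgeR, with adjusted p-values of 0.0489 and 0.0311, so that 3 of the 8 passed beside 11.0% of all genes. Leaving out Y198F mutant 1 gave an adjusted p of 0.0377 for Kcnj2, and leaving out Y198F mutant 2 gave 0.0216 for Kcnma1. Against the S205A controls of the 22 series, 0 of the 8 genes passed (0.0% of 15879 genes did), 0 had an unadjusted p under 0.05, and 0 had groups that did not overlap, beside 8.23% of genes. Under that control group the signs of Kcna2, Kcna5, Kcnmb1, Abcc9 and Kcnq5 were opposite to those against the labelled controls. The authors' deposited table for Y198F, which held the same values as a fit against all 4 S205A controls, lists Kcna2 at 0.18 on the log2 scale (adjusted p = 0.959).

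**Figure D3:**
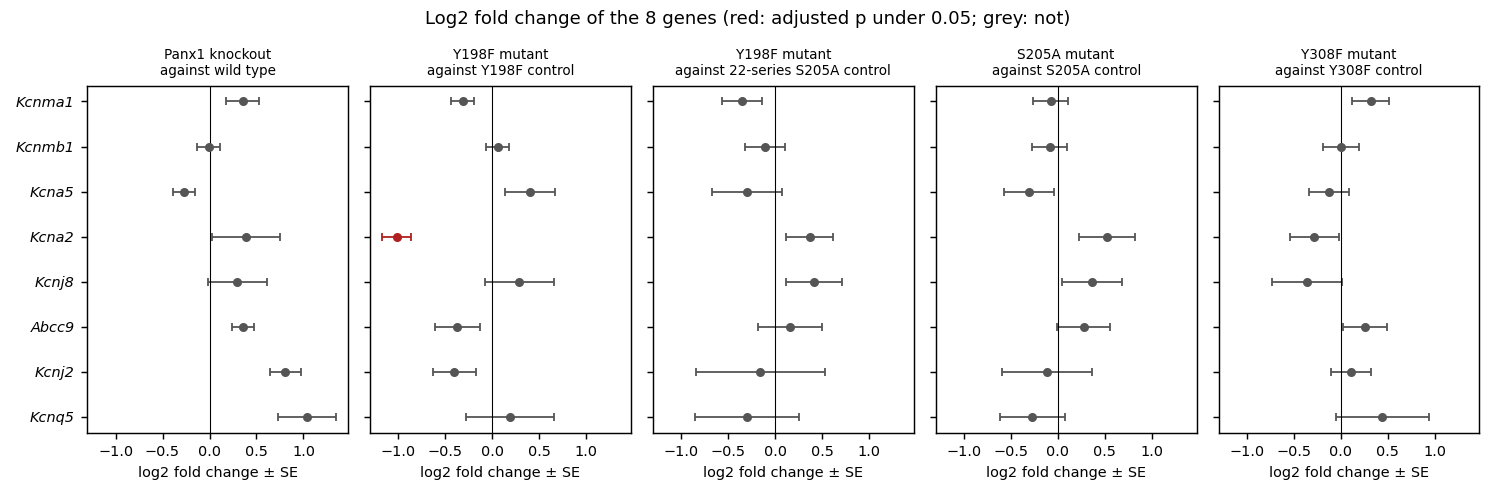
Log2 fold change and SE of each gene in the 4 labelled comparisons and for the Y198F mutants against the 3 S205A controls of the 22 series. Kcna2 against the Y198F controls (-1.02) is the single red point, and its value against the S205A controls of the same library series (0.37) lies on the other side of 0.

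In the S205A comparison, 0 of the 8 genes passed in edgeR (0.0% of 15709 genes did), 0 had an unadjusted p under 0.05 (2.87% of genes), and 0 passed in DESeq2 (0.495%). No member had groups that did not overlap, beside 1.81% of all genes. Kcna2 had the largest estimate among them, with 56.3, 29.8, 42.8 and 65.3 CPM in the controls and 82.2, 61.4, 93.8 and 41.1 CPM in the mutants, a difference of 0.52 ± 0.296 (SE) on the log2 scale (edgeR adjusted p = 1.00). With each library left out in turn it ran from 0.33 (without control 2, and 0.34 without mutant 3) to 0.71 (without mutant 4), with no adjusted p under 0.999. Within the 22 series alone, 3 against 3 libraries, it was 0.61 (SE 0.351, edgeR adjusted p = 1.00). The Schwann list summed to 131 to 183 CPM in the controls and 193 to 316 CPM in the mutants, with 0 of 8 genes past the threshold in edgeR and 2 of 9 (Sox10 and S100b) higher in DESeq2. The fibroblast list did not overlap either, at 1487 to 2025 CPM in the controls and 2134 to 6111 CPM in the mutants, with 0 of 7 genes past the threshold in edgeR and 3 (Col1a1, Col1a2 and Lum) higher in DESeq2. The part of either in the Kcna2 value was not tested. Kcnj2 ranged from 3.06 to 22.2 CPM within the S205A controls, which is the whole range of the 26 libraries.

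S205A control 1 stood apart for several members. It held the lowest Kcnj2 (3.06 CPM) and the highest Kcna5 (259 CPM), Kcnma1 and Kcnmb1 of all 26 libraries, and the highest smooth muscle (58271 CPM) and pericyte (5557 CPM) sums. It also held the lowest endothelial (1283 CPM, the next library at 3429), neuron (59.6 CPM) and lymphoid (0.622 CPM) sums. The neuron sum was mostly Stmn2 and Uchl1 (medians of 99.5 and 44.1 CPM over the 26 libraries), while Th, Dbh, Nefl, Nefm and Elavl4 had medians of 0. The part of these lists in its values was not tested. Without it, the log2 fold changes in the S205A comparison were 0.05 for Kcna5, 0.06 for Kcnma1 and 0.10 for Kcnmb1, in place of -0.31, -0.07 and -0.09 with all libraries, and none of these passed.

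In the Y308F comparison, 0 of the 8 genes passed in edgeR (0.0% of 16037 genes did), 0 had an unadjusted p under 0.05 (4.40% of genes), and 0 passed in DESeq2 (0.0%). No member had groups that did not overlap, beside 10.7% of all genes. The log2 fold changes ran from -0.36 for Kcnj8 (SE 0.370, edgeR adjusted p = 0.950) to 0.44 for Kcnq5 (SE 0.496, edgeR adjusted p = 0.960). Kcnj8 was measured at 3.78, 11.7 and 6.50 CPM in the controls and at 5.94, 5.71 and 5.34 CPM in the mutants. The mutants lay close together inside the range of the controls.

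Whether a gene responded differently to 2 mutations was tested as an interaction for all 6 pairs of comparisons. Kcnj2 differed between the Panx1 knockout and Y198F comparisons, by 1.21 on the log2 scale (SE 0.299, edgeR adjusted p = 0.0186), from 0.81 in the knockout and -0.41 in Y198F. It was 1 of 8 members, beside 11.6% of the 17347 genes tested, and in the other 5 interactions 0 of the 8 passed. Of all genes, 5.70% passed for Y198F against Y308F (979 genes, and 0 with all 8 groups in one fit), 0.00562% for the knockout against S205A, 0.0116% for the knockout against Y308F and 0.0% for S205A against Y198F or Y308F. With all 8 groups in one fit the adjusted p of Kcnj2 was 0.244, and with a term for the library series it was 1.

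Ratios of counts inside a library need no scaling between libraries. The ratio of Kcnmb1 to Kcnma1, accessory subunit to pore, was 2.69, 2.23 and 3.01 in wild type and 1.83, 2.17 and 2.00 in the Panx1 knockout, with no overlap. In the Y308F comparison it was 2.41, 2.41 and 2.63 in the controls and 2.18, 2.17 and 1.75 in the mutants, again lower with no overlap. In the Y198F comparison it was 2.06, 2.34 and 1.93 in the controls and 3.27, 2.41 and 2.64 in the mutants, higher with no overlap. Each of these gave an exact two-sided permutation p of 0.1, the smallest possible for 3 against 3, and 0.24 after adjustment over 12 ratio comparisons, so none passed. In the S205A comparison the log2 difference of this ratio was -0.01 (exact permutation p = 0.943). S205A control 4 and S205A mutant 1 are not of the library series of the Y198F mutants, and their ratios were 1.85 and 1.84. The other S205A libraries are of that series and had higher ratios, from 1.99 to 2.73. The part of the library series in the higher ratio of the Y198F mutants was not tested. How often ratios of other gene pairs do not overlap was not tested either.

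For the KATP pair, the ratio of Abcc9 to Kcnj8 was 6.73, 6.07 and 9.98 in the Y198F controls and 3.93, 4.39 and 4.90 in the mutants. These libraries did not overlap, and the exact permutation p was 0.1 (0.24 adjusted). S205A control 4 and S205A mutant 1, which are not of the library series of the Y198F mutants, had 8.22 and 8.99. The other S205A libraries are of that series and had lower ratios, from 3.565 to 6.975. The part of the library series in the lower ratio of the Y198F mutants was not tested. In Y308F the ratio went the other way, from a geometric mean of 4.86 to 6.92, a log2 difference of 0.51 with overlapping libraries (exact permutation p = 0.2), and the log2 difference was -0.04 in the knockout and -0.03 in S205A (exact permutation p = 0.8 and 0.943). The ratio of Kcna5 to Kcna2 was 1.30, 0.634 and 0.911 in the Y198F controls and 1.90, 2.74 and 2.74 in the mutants, also without overlap and with the same p. In the S205A line, where the groups hold libraries of both series, that ratio ran from 1.84 to 4.61 in the controls and from 1.13 to 3.79 in the mutants, a log2 difference of -0.75 (exact permutation p = 0.2). The log2 difference was -0.62 in the knockout and 0.14 in Y308F (exact permutation p = 0.6 and 0.7).

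**Figure D4:**
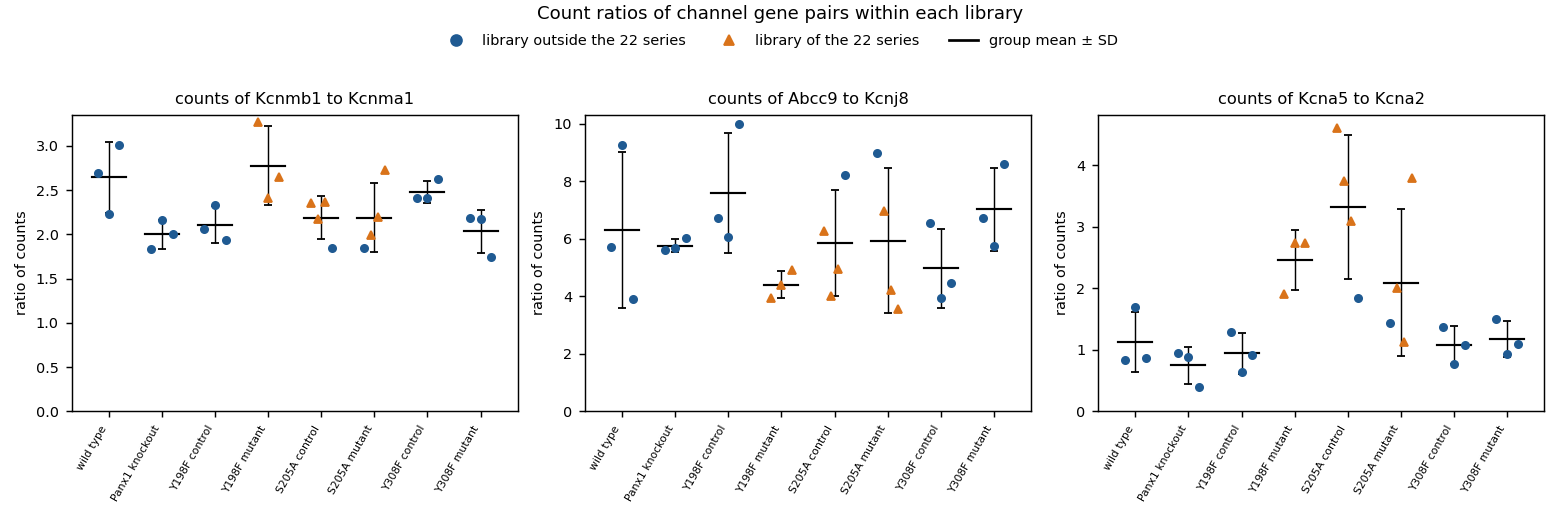
Ratio of counts of Kcnmb1 to Kcnma1, Abcc9 to Kcnj8 and Kcna5 to Kcna2 in each library by group, with the group mean and 1 SD. Kcna5 to Kcna2 lies between 1.90 and 2.74 in the Y198F mutants, above their controls (0.634 to 1.30) and within the range of the S205A controls (1.84 to 4.61).

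Members were then compared with each other across libraries, within each library series, over 28 pairs. Over the 17 libraries outside the 22 series, Kcnma1 and Kcnmb1 were correlated, with Pearson r = 0.709 and Spearman rho = 0.610 (permutation p = 0.00142 and 0.0107, 0.0398 and 0.136 adjusted), and r = 0.523 without the 2 farthest libraries. Kcnj8 and Abcc9 gave r = 0.672 and rho = 0.591 (permutation p = 0.00320 and 0.0146, 0.0448 and 0.136 adjusted), and r = 0.659 without the 2 farthest libraries. Both pairs are subunits of one channel, and both passed for r and not for rho. In the 9 libraries of the 22 series the same pairs gave r = 0.705 and 0.729 with exact permutation p-values of 0.0361 and 0.0266, which did not pass after adjustment (0.144 and 0.124). Another 3 pairs passed for r in that series, each with an adjusted exact permutation p of 0.0434: Kcna5 with Kcnma1 (r = 0.852), with Kcnmb1 (r = 0.856) and with Kcnj2 (r = -0.871). Without the 2 farthest libraries these were 0.540, 0.632 and -0.487, and 0 pairs passed for rho in either series. The KATP value in the 22 series fell to r = 0.0989 without the 2 farthest libraries, so it rests on those libraries.

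Cell type lists, summed in each library, moved with different members. The relations numbered 88 in each series, of which 8 passed for r and 5 for both r and rho over 17 libraries, and 12 and 2 over 9. Kcna2 followed the Schwann list closely, with r = 0.845 and rho = 0.912 over the 17 libraries outside the 22 series (permutation p = 1e-05 for both, the smallest these permutations can give, and 0.00088 adjusted over 88 relations). Without the 2 farthest libraries r was 0.798. In the 9 libraries of the 22 series r was 0.858 and rho 0.833 (exact permutation p = 0.00404 and 0.00827, adjusted 0.0423 and 0.104), and r was 0.551 without the 2 farthest. The largest part of the Schwann sum (median 243 CPM over the 26 libraries) was Pmp22, with a median of 114 CPM. S100b, Mag and Ncmap of that list had medians of 8.14, 1.11 and 0.344 CPM. Kcna2 ran opposite to the endothelial list over the 17 libraries, with r = -0.698 and rho = -0.757 (adjusted permutation p = 0.0349 and 0.0211), and r = -0.702 without the 2 farthest. In the 9 libraries of the 22 series that relation did not pass, at r = -0.312 and rho = -0.117 (adjusted exact permutation p = 0.656 and 0.948), and r was 0.171 without the 2 farthest. Kcnj8 had the same signs as Kcna2 over the 17 libraries and passed for rho alone, at r = 0.619 and rho = 0.701 with the Schwann list (adjusted permutation p = 0.0590 and 0.0355) and r = -0.631 and rho = -0.762 with the endothelial list (0.0502 and 0.0211). In the 22 series Kcnj8 passed for neither list, at r = 0.511 and -0.293 (adjusted exact permutation p = 0.423 and 0.706). Against the smooth muscle list, Kcna2 gave r = -0.252 and 0.225 in the 2 series, with permutation p-values of 0.331 and 0.566 (the second one exact).

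Kcnmb1 followed the smooth muscle list in both series, with r = 0.752 and rho = 0.728 over 17 libraries (permutation p = 0.00037 and 0.00129, 0.0163 and 0.0284 adjusted) and r = 0.743 without the 2 farthest. Over the 9 libraries of the 22 series r was 0.936 and rho 0.900 (exact permutation p = 0.000333 and 0.00203, 0.0147 and 0.0595 adjusted), and r = 0.805 without the 2 farthest. Kcna5 gave r = 0.604 and 0.825 against the same list, of which only the second passed after adjustment (0.0704, and 0.0423 from an exact test over 9 libraries). Kcnma1 gave r = 0.503 and 0.811 and passed in neither (adjusted p = 0.164, and 0.0601 from the exact permutation test). Kcnmb1 also followed the gut smooth muscle and interstitial list in the 22 series (r = 0.828, rho = 0.95, adjusted exact permutation p = 0.0462 and 0.0310). Over 17 libraries it passed for rho alone (r = 0.583, rho = 0.686, adjusted permutation p = 0.0722 and 0.0393). Kcnmb1 ran opposite to the endothelial list in the 22 series for r alone (r = -0.868, adjusted exact permutation p = 0.0388, and -0.444 without the 2 farthest). Over 17 libraries that relation did not pass (r = -0.457). Against the pericyte list Kcnma1 and Kcnmb1 gave r = 0.683 and 0.722 over 17 libraries (permutation p adjusted to 0.0349 and 0.0264), and 0.265 and 0.563 without the 2 farthest, so the Kcnma1 value over 17 libraries rests on those libraries. Over the 9 libraries of the 22 series they gave r = 0.834 and 0.886 (adjusted exact permutation p = 0.0423 and 0.0388), and 0.795 and 0.711 without the 2 farthest. The pericyte sum was mostly Mcam, Notch3 and Cspg4 (medians of 1447, 643 and 629 CPM over the 26 libraries). Higd1b and Vtn of that list had medians of 7.04 and 0.758 CPM. Abcc9 and Kcnj8, known as genes of pericytes as well as of muscle, gave r = 0.443 and 0.0447 against that list over 17 libraries and did not pass (adjusted permutation p = 0.224 and 0.958). Abcc9 ran opposite to the endothelial list there, with r = -0.673 and rho = -0.672 (adjusted permutation p = 0.0349 and 0.0395), and r = -0.440 without the 2 farthest. In the 22 series that relation did not pass, at r = -0.591 (adjusted exact permutation p = 0.400), and r was 0.412 without the 2 farthest. Abcc9 and Kcnq5 ran opposite to the neuron list over the 17 libraries for r (r = -0.658 and -0.749, adjusted permutation p = 0.0349 and 0.0264) and not for rho (0.245 and 0.135), with r = -0.386 and -0.353 without the 2 farthest. In the 22 series Kcnj2 followed the neuron list, whose sum is mostly Stmn2 and Uchl1 (r = 0.969, rho = 0.933, adjusted exact permutation p = 0.0147 and 0.0330, r = 0.811 without the 2 farthest). It also followed the endothelial list (r = 0.938, adjusted exact permutation p = 0.0388), and that value rests on the 2 farthest libraries (r = 0.472 without them). Over the 17 libraries Kcnj2 passed with neither list, at r = 0.450 and 0.589 (adjusted permutation p = 0.226 and 0.0722), and r was -0.0239 and 0.251 without the 2 farthest. Kcnj2 ran opposite to the pericyte list in the 22 series for r alone (r = -0.832, adjusted exact permutation p = 0.0423, and -0.458 without the 2 farthest). Over the 17 libraries that was r = -0.188 (adjusted permutation p = 0.638). Against the smooth muscle list Kcnj2 passed in neither series, at r = -0.385 over 17 libraries and -0.788 over 9 (adjusted permutation p = 0.322 and 0.0805, the second one exact). Samples of one group and one preparation share their origin, so the libraries behind these coefficients are not fully independent.

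**Figure D5:**
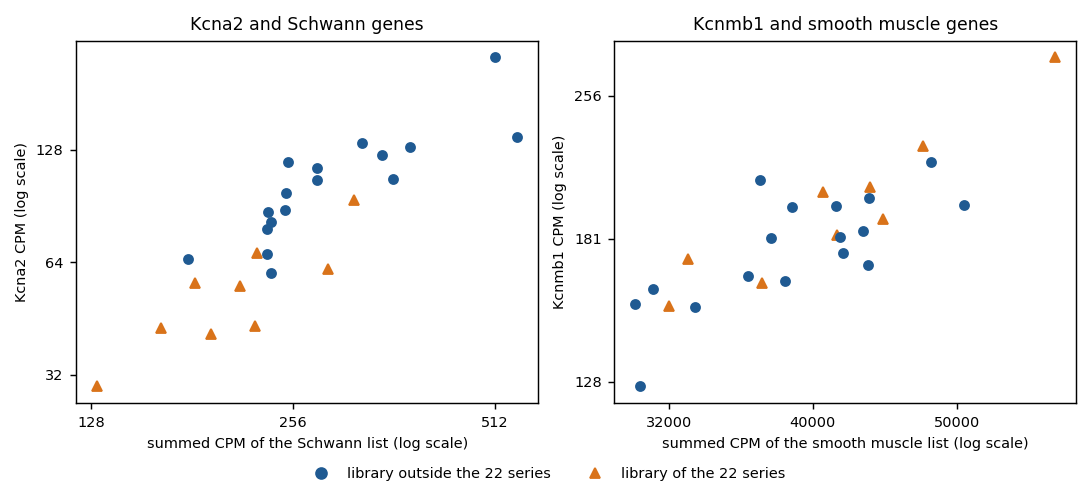
CPM of Kcna2 against the summed CPM of 9 Schwann cell genes, and of Kcnmb1 against the summed CPM of 12 smooth muscle genes, per library on log axes, with triangles for the 22 series. Kcna2 rises with the Schwann list in both library series (r = 0.845 and 0.858), and Kcnmb1 rises with the smooth muscle list (r = 0.752 and 0.936).

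The genes whose log2 CPM was most like that of each member over the 17 libraries outside the 22 series, among 11811 protein-coding genes, are given as a description. For Kcna2 they were Ank3, Zfp536 and Chl1, each with r = 0.926, and r over the 9 libraries of the 22 series was 0.738, 0.622 and 0.873. For Kcnma1 they were Tmem47 (r = 0.930), Braf (0.926) and Sox5 (0.923), with 0.739, 0.505 and 0.859 in the 22 series. For Kcnmb1 they were Taf1a (r = 0.887), Ltbp1 (0.872) and the actin-severing factor Dstn (0.870), with 0.797, 0.911 and 0.965 in the 22 series. For Kcna5 they were Slc6a17 (r = 0.893), Ilk (0.833) and Vwa8 (0.830), with 0.897, 0.249 and 0.741 in the 22 series. For Kcnj8 they were Comp (r = 0.899), Snrnp70 (0.890) and Mettl17 (0.882), and r over the 22 series fell to 0.374, 0.552 and 0.123. For Abcc9 they were Epha3 (r = 0.885), Abi3bp (0.879) and Sfxn4 (0.873), with 0.662, 0.705 and 0.215 in the 22 series. For Kcnj2 they were Pofut1 (r = 0.910), Smad3 (0.854) and the Wnt receptor Fzd6 (0.852), with 0.685, 0.870 and 0.949 in the 22 series. For Kcnq5 they were Ppp1r9a (r = 0.860), Zgrf1 (0.843) and Krba1 (0.837), with r of 0.270, -0.05 and 0.0884 in the 22 series.

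A wider list of 78 other potassium channel genes put the members in context. Of these, 30 averaged at least 1 CPM and 6 had 0 counts in every library. Among the highest levels per kilobase were those of Kcnh2, the ERG1 channel, at 30.4 CPM per kilobase, Kcne4, a small accessory subunit, at 19.7, and Kcnab1, a Kv1 beta subunit, at 17.4.

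In the Y198F comparison 3 of the 36 genes of the wider list that were tested were higher and 4 were lower past the edgeR threshold, beside 9.55% higher and 5.48% lower of all genes tested, and the median log2 fold change was -0.02. Those higher included Kcnh2 (0.62, adjusted p = 0.00504) and Kcnn4 (0.65, adjusted p = 0.00707), the endothelial intermediate-conductance calcium-activated channel. Lower were Kcnj10 (-2.79, adjusted p = 0.00712), the inward rectifier Kir4.1 of glial cells, Kcnn3 (-0.55, adjusted p = 0.00776), a small-conductance calcium-activated channel, Kcna1 (-1.64, adjusted p = 0.0229), the Kv1.1 channel of nerve fibres, and Kcnk7 (-2.19, adjusted p = 0.0384). Against the S205A controls of the 22 series 0 of 32 tested passed in edgeR and 2 had an unadjusted p under 0.05, beside 0.0% and 3.10% of all genes. In DESeq2 on all libraries, 0 of 44 tested were higher and 1 was lower in the Y198F comparison (Kcnk7, -2.22, adjusted p = 0.0354), beside 7.73% of all genes in either direction, so the other 6 calls rest on the edgeR fit of these 2 groups.

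In the other 3 comparisons 0 genes of the wider list passed in edgeR. At an unadjusted p under 0.05 edgeR counted 3 of 37 in the Panx1 knockout, 2 of 33 in S205A and 2 of 37 in Y308F, beside 11.2%, 2.87% and 4.40% of all genes. DESeq2 called 0 of 31 in the knockout (0.134% of all genes), 0 of 50 in Y308F (0.0%) and 1 of 43 in S205A (0.495%), Kcnh8 (3.52, SE 0.881, adjusted p = 0.0245, 0 to 50 counts per library), which was not among the genes tested in edgeR.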

How the data were processed

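Polyadenylated RNA of mesenteric arteries was read as pairs of 150 bases and mapped by the authors to GRCm39 with STAR 2.7.9a, and genes were counted by featureCounts (Rsubread 2.20.0), per the labels. The annotation release is not given in the sources used here. The authors deposited whole-number counts per gene, and a normalized signal (counts divided by 1 DESeq2 size factor per library, checked to within 4.66e-09). Their deposited DESeq2 1.46.0 tables give log2 fold changes, a test score and p-values.

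Deposited counts were tested with edgeR 4.0.16 (quasi-likelihood, TMM, filterByExpr, Benjamini-Hochberg adjustment over all genes tested, threshold 0.05), using the groups of each comparison, and in each interaction its 4 groups. CPM were scaled with TMM over 26 libraries, and a prior count of 2 entered log2 CPM. Ratios used counts with 0.5 added. Correlations used 100000 permutations over 17 libraries and all 362880 orders over 9. The tests were checked on simulated data. The 8 genes, the wider list and the marker lists were chosen with earlier results of these data known. All 8 were named, with wider-list genes past the threshold or among the 5 highest per kilobase and the 3 genes most like each member; some of these values and 1 sequence are not reported here. Alternatives were DESeq2 1.42.0, its size factors, no filter, 1 fit of all groups, a series term, other controls, the replicate block and each library left out.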

Additional observations from a re-analysis of the deposited data

Results flagged for a closer look

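Kcna5 in S205A control 1 (259 CPM) lay far from the other 3 S205A controls, with a gap to the nearest of them of 0.857 of the whole range, above Dixon's 95% limit for 4 libraries. It was the 1 flagged of 16 tests, each of 1 gene in the 4 S205A controls or the 4 S205A mutants, and chance marks about 1 in 20. The tests share these libraries and are not independent. S205A control 1 also held the highest smooth muscle and pericyte sums, the lowest endothelial and neuron sums (the latter mostly Stmn2 and Uchl1) and the lowest Kcnj2 of the 26, and their part in the Kcna5 value was not tested. Kcnj2 differed between the Panx1 knockout and Y198F comparisons by 1.21 on the log2 scale in edgeR's interaction test (SE 0.299, adjusted p = 0.0186), higher in 3 of 3 knockout libraries than the wild-type mean and lower in 2 of 3 Y198F mutants than their control mean. The Y198F mutants are the only libraries of the 22 series in that test, so the series and this difference cannot be told apart.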

How the results depend on the processing

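The Kcna2 call in Y198F held under DESeq2, its size factors in edgeR, no filter and the replicate block (-1.03, adjusted p = 0.00363), and with each library left out (-1.19 to -0.86). It did not hold with all groups in one fit (-1.01), with a series term (-0.55) or against the S205A controls of the 22 series (0.37), where 0 members passed under each, nor did the gene counts: 922, 0 and 0 in place of 2411, and 1531 by DESeq2. Without the filter 3 members passed in Y198F, beside 3158 genes (11.0% of those tested), and 1 in the knockout, and with a library left out 1 to 2 in Y198F. Y198F gene counts ran from 908 (without control 3; 1546 without control 1) to 2128. Knockout gene counts were 20 by DESeq2, 243 without the filter, 18 with the replicate block and 1 to 5 with a library left out (1 without wild type 1 or any knockout, 3 without wild type 2), in place of 5. S205A gave 96 genes by DESeq2 and 0 to 1 with a library left out, and Y308F 7 without the filter and 0 to 1, in place of 0. The S205A line gave 70 to 1174 series genes. For the knockout against Y198F, all groups in one fit gave 108 genes, 0 members and 1.19 for Kcnj2, and the series term 3 genes, 0 members and 0.89, in place of 2004, 1 and 1.21. The cause of these changes was not tested.

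Of the 32 member fold changes, 18 changed sign in at least 1 alternative, and apart from Kcna2 none of those was past the threshold in the first place. Against the 22-series S205A controls these were Abcc9 (0.16), Kcna5 (-0.30), Kcnmb1 (-0.11) and Kcnq5 (-0.30), and with the series term Kcnj8 (-0.27) and Kcnma1 (0.00021) in Y198F. Kcnmb1 in Y308F was -0.0080 in both fits of all groups. With libraries left out, the S205A values ran from -0.45 to 0.049 for Kcna5, -0.44 to 0.32 for Kcnj2, -0.20 to 0.064 for Kcnma1 and -0.22 to 0.10 for Kcnmb1. Y198F values ran from -0.047 to 0.75 for Kcnj8, -0.035 to 0.15 for Kcnmb1 and -0.20 to 0.60 for Kcnq5. Y308F values ran from -0.26 to 0.18 for Kcna5, -0.057 to 0.31 for Kcnj2, -0.67 to 0.15 for Kcnj8 and -0.17 to 0.21 for Kcnmb1. Knockout values ran from -0.034 to 0.58 for Kcna2, -0.0042 to 0.61 for Kcnj8 and -0.12 to 0.080 for Kcnmb1, and the series value of Kcnmb1 from -0.12 to 0.0785. Log2 ratio differences ran from -0.12 to 0.069 (Kcnmb1 to Kcnma1, S205A), -0.34 to 0.28 (Abcc9 to Kcnj8, knockout), -0.26 to 0.19 (the same, S205A) and -0.084 to 0.33 (Kcna5 to Kcna2, Y308F).

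Deviations of equally numbered libraries correlated between -0.284 and 0.225. Differently numbered libraries were not set beside them, so these values cannot decide whether replicate numbers pair libraries. The replicate block gave 18 genes in the knockout (5 without it), 1760 in Y198F, 0 in S205A and 0 in Y308F. It turned Kcnj2 in S205A from -0.11 to 0.082, and changed no member's call. DESeq2 size factors moved 0 of 64 group means by 1 SD. Of 25 correlations that passed, 6 moved beyond their 95% interval without the 2 farthest libraries. Kcnq5, at 20 to 143 counts per library, has the fewest counts of the 8.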
